A study of Mus musculus with 108 samples.

Results

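The complement genes of the terminal pathway and the alternative pathway were compared across 6 inbred mouse strains in 6 tissues. Of 9 genes listed (Hc, C3, C6, C7, C8a, C8b, C8g, C9 and Cfb), 7 had a probe set assigned to that gene alone, and each had exactly 1 such probe set. C3 and C7 were not analysed here. The 7 genes are set against all 18193 genes with such a probe set. The arrays came from C57BL/6J, 129S2, C3HeB/FeJ, A/J, DBA2/J and AKR/J males aged 11 to 14 weeks, for which the labels name no treatment. Each of the 36 groups of strain and tissue (liver, lung, kidney, heart, brain, testis) held 3 arrays. The 129S2 mice came from a different supplier than the other 5 strains, so that supplier and strain cannot be told apart for 129S2. By title number, the C57BL/6J liver, kidney and testis arrays came from other animals than its lung, heart and brain arrays. Any effect of that choice of animals was not tested. Values are log2 array signals, where a difference of 1 is a doubling.

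Complement is a cascade of plasma proteins, made mainly in the liver, that marks and punctures microbes. Factor B, encoded by Cfb, joins activated C3 to form the enzyme of the alternative pathway, which cleaves more C3 and then C5. The larger fragment of C5, encoded in the mouse by Hc, gathers C6, C7, the 3 chains of C8 (C8a, C8b and C8g) and several copies of C9 into the membrane attack complex, a pore in the target membrane. A/J, DBA2/J and AKR/J are textbook C5-deficient strains, which carry a frameshift deletion in Hc, whereas C57BL/6J, 129S2 and C3HeB/FeJ are not among them. These strains are therefore taken as 3 against 3 below.

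RefSeq promoters (GRCm38.p6, 250 bases before to 50 after a start) were given for 6 of the 7 genes. Those of Hc, C8g and C9 are shown, because Hc and C8g divided the strains in the same way and C9 held a match to a liver factor motif. Capitals mark a motif match.
Hc, chr2:35061363-35061662, minus strand: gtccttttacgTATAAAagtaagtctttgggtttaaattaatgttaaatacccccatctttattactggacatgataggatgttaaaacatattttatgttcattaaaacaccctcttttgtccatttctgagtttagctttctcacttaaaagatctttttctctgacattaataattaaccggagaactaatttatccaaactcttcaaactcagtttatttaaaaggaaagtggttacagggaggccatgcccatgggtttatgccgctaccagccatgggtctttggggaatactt
C8g, first start, chr2:25501670-25501969, minus strand: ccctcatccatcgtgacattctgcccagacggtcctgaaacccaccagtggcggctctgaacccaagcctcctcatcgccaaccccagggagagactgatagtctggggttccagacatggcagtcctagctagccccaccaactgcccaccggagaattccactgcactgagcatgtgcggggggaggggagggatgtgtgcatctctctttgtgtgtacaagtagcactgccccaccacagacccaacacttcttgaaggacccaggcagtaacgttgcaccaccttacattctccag
C8g, second start, chr2:25500457-25500756, minus strand: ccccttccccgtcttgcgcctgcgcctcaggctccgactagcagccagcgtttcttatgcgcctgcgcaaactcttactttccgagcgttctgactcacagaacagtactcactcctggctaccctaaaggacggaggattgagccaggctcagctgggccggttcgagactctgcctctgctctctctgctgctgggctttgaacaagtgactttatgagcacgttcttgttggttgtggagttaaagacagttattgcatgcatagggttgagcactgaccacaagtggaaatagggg
C9, chr15:6445096-6445395, plus strand: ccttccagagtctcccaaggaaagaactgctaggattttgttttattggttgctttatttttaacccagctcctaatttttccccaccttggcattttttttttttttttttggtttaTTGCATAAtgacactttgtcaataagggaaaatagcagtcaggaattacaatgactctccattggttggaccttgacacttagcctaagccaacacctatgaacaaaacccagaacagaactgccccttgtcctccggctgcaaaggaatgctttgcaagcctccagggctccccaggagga
Searched on both strands were TATAAA (the TATA box), the palindromic HNF1 site, CAAAGTCCA (HNF4), TGTTTAC (FOXA) and TTGCNNAA (C/EBP, liver factors like the 3 before it). The Hc window held TATAAA at -239, a match present in 13.6% of 32851 promoters. The C9 window held the C/EBP letters at -132, present in 10.8% of promoters. The HNF1 site was in 0.00913%, HNF4 letters in 0.475% and FOXA letters in 3.65% of promoters. Only exact matches were counted, so near matches are not marked. A site as rare as the HNF1 letters was unlikely to be found in any window. No searched motif was found in the windows of C8g, C6, C8a or C8b.

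The array medians ranged from 5.34 to 5.38 in liver, 7.21 to 7.28 in lung and 6.20 to 6.24 in testis, so levels are compared within a tissue only, since tissues may have been normalized apart. On all 18 arrays of each tissue, the markers of the labelled tissue were higher than those of the other 5 tissues. One C3HeB/FeJ lung array (replicate 3) stood apart, with skeletal muscle markers at 11.26 against 6.38 on the next highest lung array. The main lung values of Hc, C6 and Cfb are also given without it. No pair of replicates shared more than 0.155% of its values. In these bulk tissues, fewer cells of a type and less RNA per cell cannot be told apart, and a sequence difference under a probe can change the signal without a change in RNA. Whether a signal was above background was not tested.

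In liver all 7 genes differed among the 6 strains in an F test (limma, p-values adjusted over all genes by Benjamini-Hochberg), as 31.6% of all genes did. The median distance between the highest and the lowest strain mean was 1.11 for the 7 genes and 0.264 for all genes. A/J was the lowest strain for 5 of them (Hc, C6, C8a, C8b and C9), and C57BL/6J was the highest for 4. The shares of all genes with A/J lowest or C57BL/6J highest were not counted. Against the mean of the other 5 strains, A/J was lower and passed (limma adjusted p under 0.05) for 6 of 7 genes. This held for 6.89% of all genes. The C8g call (-0.16; limma adjusted p = 0.0295) was lost without any 1 A/J array (0.0549 to 0.125) and with arrays of all tissues in 1 fit (0.142), and the C8a call without A/J replicate 2 (0.0815).

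Hc, which encodes the C5 precursor, gave the clearest division. The liver arrays read 13.13, 13.05 and 12.92 in C57BL/6J, 12.48, 12.57 and 12.50 in 129S2, and 12.58, 12.66 and 13.02 in C3HeB/FeJ. In the C5-deficient strains they read 10.64, 10.62 and 10.82 in A/J, 11.37, 11.59 and 11.41 in DBA2/J, and 11.27, 10.83 and 11.27 in AKR/J. All 9 arrays of A/J, DBA2/J and AKR/J lay below all 9 of the others, an ordering found for 0.077% of all genes. The difference was -1.68 ± 0.0703 (SE, 9 arrays a side), a 3.20-fold lower signal (limma adjusted p = 1.37e-11). In the deficient strains the Hc signal stayed above the liver array median. In the order of strain means, 129S2 exceeded DBA2/J by 1.06 (limma adjusted p = 6.11e-06) and AKR/J exceeded A/J by 0.43 (limma adjusted p = 0.0289), while no other pair of neighbours differed.

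**Figure D1:**
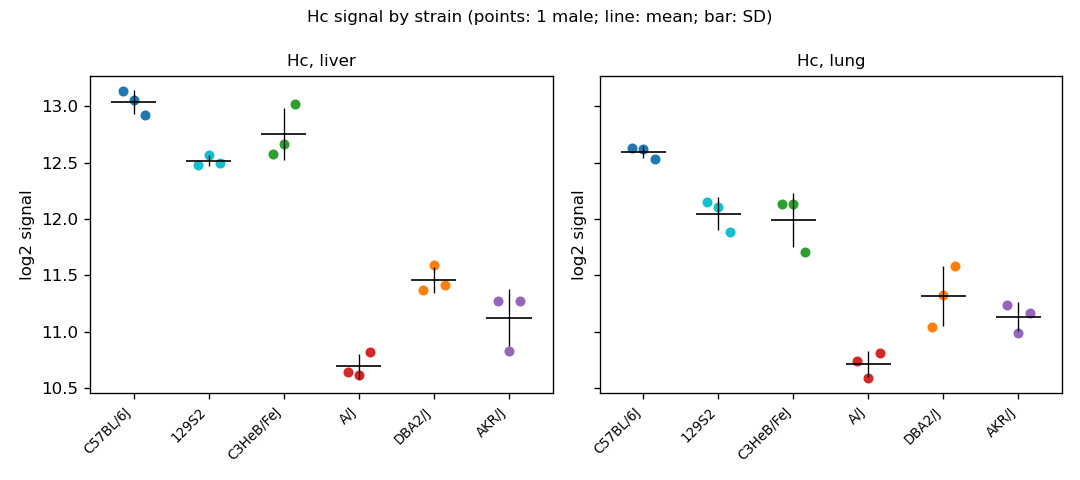
Hc log2 signal (y axis) in liver and lung by strain (x axis), with points for the 3 arrays of each strain, a line for the mean and a bar for the SD. A/J, DBA2/J and AKR/J lie below the other 3 strains in both tissues, with A/J at 10.69 in liver and 10.71 in lung.

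In lung, 3 of the 7 genes passed the F test (32.5% of all genes did), namely Hc, C6 and Cfb. Hc read 12.63, 12.62 and 12.53 in C57BL/6J, 12.15, 12.11 and 11.88 in 129S2, and 12.13, 12.13 and 11.71 in C3HeB/FeJ. The deficient strains read 10.74, 10.59 and 10.81 in A/J, 11.04, 11.33 and 11.58 in DBA2/J, and 11.24, 10.99 and 11.17 in AKR/J. Again all 9 arrays lay below the other 9 (0.0824% of all genes), by -1.15 ± 0.0766 (SE, 9 arrays a side; limma adjusted p = 5.36e-08), and by -1.20 without the C3HeB/FeJ array with muscle markers. C57BL/6J exceeded 129S2 by 0.55 (limma adjusted p = 0.0127), and C3HeB/FeJ exceeded DBA2/J by 0.67 (limma adjusted p = 0.00373). Without the array with muscle markers, C57BL/6J exceeded C3HeB/FeJ, then second in the order, by 0.47 (limma adjusted p = 0.0246), C3HeB/FeJ and 129S2 did not pass as a pair (0.08; limma adjusted p = 0.793), and 129S2 exceeded DBA2/J by 0.73 (limma adjusted p = 3.78e-04). The same 3 genes passed the F test without it. The difference between the 3-strain groups was larger in liver than in lung by -0.52 ± 0.106 (SE; limma adjusted p = 0.0013; 7.99% of all genes passed), and by -0.48 without the array with muscle markers (limma adjusted p = 0.00179). Hepatocyte markers averaged 5.32 to 6.07 on the lung arrays, below the array median, and 4 of 11 passed; the highest strain mean was 5.70, in A/J. Their part in the Hc difference was not tested.

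In kidney, heart, brain and testis the Hc arrays ranged from 4.10 to 5.29, below the array medians of those tissues. The 3-strain difference did not pass there, at -0.09 in kidney, -0.09 in heart, 0.02 in brain and -0.09 in testis (limma adjusted p = 0.249, 0.472, 0.926 and 0.143).

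C6, the first protein to join C5b, was spread most widely in liver, but along other lines. C57BL/6J read 11.81, 11.77 and 11.82, and DBA2/J, a C5-deficient strain, read 11.69, 11.83 and 11.67. Then came C3HeB/FeJ at 10.81, 10.44 and 11.03, 129S2 at 10.54, 10.56 and 10.81, AKR/J at 10.47, 10.08 and 10.40, and A/J at 9.46, 8.59 and 9.35. The distance between C57BL/6J and A/J was 2.67, or 6.35-fold (limma F test, adjusted p = 1.59e-08). DBA2/J exceeded C3HeB/FeJ by 0.97 (limma adjusted p = 0.00191) and AKR/J exceeded A/J by 1.18 (limma adjusted p = 2.25e-04), while the other neighbours did not differ.

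In lung, C6 read 8.62, 8.49 and 8.33 in A/J, against 9.13 to 10.33 on the 15 arrays of the other strains. The A/J arrays were below all others, at -1.32 ± 0.111 (SE) from the other 5 strains (limma adjusted p = 1.02e-06). Without the C3HeB/FeJ array with muscle markers the difference was -1.34. The share of all genes with A/J arrays below all others in lung was not counted. Fibroblast markers, all 8 of which differed among strains in lung, were also lowest in A/J lung, at 11.25 to 11.43 against 11.66 to 12.17 on the other arrays; their part in the C6 difference was not tested. C6 did not pass the 3-strain comparison in lung (-0.17; limma adjusted p = 0.247) and did in liver (-0.67; limma adjusted p = 2.81e-04), although DBA2/J was among the highest strains there.

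C9, the protein that lines the pore, fell into 2 levels in liver. DBA2/J read 13.59, 13.69 and 13.57, C3HeB/FeJ read 13.41, 13.39 and 13.63, and C57BL/6J read 13.45, 13.49 and 13.26. 129S2 read 12.67, 12.69 and 12.74, AKR/J read 12.50, 11.95 and 12.61, and A/J read 12.45, 12.15 and 12.36. The 9 higher arrays did not overlap with the 9 lower ones, a grouping made after the values were seen. The share of all genes with such a grouping, or with A/J arrays below all others, was not counted. The drop from C57BL/6J to 129S2 was 0.70 (limma adjusted p = 7.38e-04), and no other neighbours differed. One C5-deficient strain and 2 C5-sufficient strains were at the higher level, so this is not the division seen for Hc.

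The chains of C8 differed less. C8b, the chain that binds the growing complex, ranged from 12.08, 12.03 and 11.97 in C57BL/6J to 11.03, 10.70 and 11.03 in A/J. All 3 A/J arrays were below the other 15, by -0.78 ± 0.0985 (SE, limma adjusted p = 2.26e-05). How many of all genes share this ordering was not counted. C8a, the chain that enters the membrane, had a mean of 12.94 ± 0.0498 on C57BL/6J liver arrays and of 12.51 ± 0.111 on A/J liver arrays (SD, n = 3). The distance was 0.44 (limma F test, adjusted p = 6.72e-04). C8g, a lipocalin bound to C8a, read 13.08 ± 0.0292 in C3HeB/FeJ and 12.67 ± 0.0715 in DBA2/J (SD, n = 3), a distance of 0.40 (limma F test, adjusted p = 1.72e-04).

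Cfb, the alternative pathway protease, had the narrowest spread in liver. It read 12.13, 12.22 and 12.13 in A/J and 11.85, 11.74 and 11.85 in 129S2, a distance of 0.35 (limma F test, adjusted p = 0.0441). Leaving out single arrays ended this call in 14 of 18 cases, with adjusted p from 0.0111 to 0.148, and the replicate block (0.0645) and testing all probe sets (0.0528) ended it too, 16 of 25 alternatives in all. Cfb was the 1 gene of the 7 for which A/J did not pass against the other 5 strains in liver (0.15; limma adjusted p = 0.193). In lung it read 8.97 ± 0.131 in DBA2/J and 8.39 ± 0.225 in 129S2 (SD, n = 3; limma F test, adjusted p = 0.0136; 0.00877 without the array with muscle markers).

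**Figure D2:**
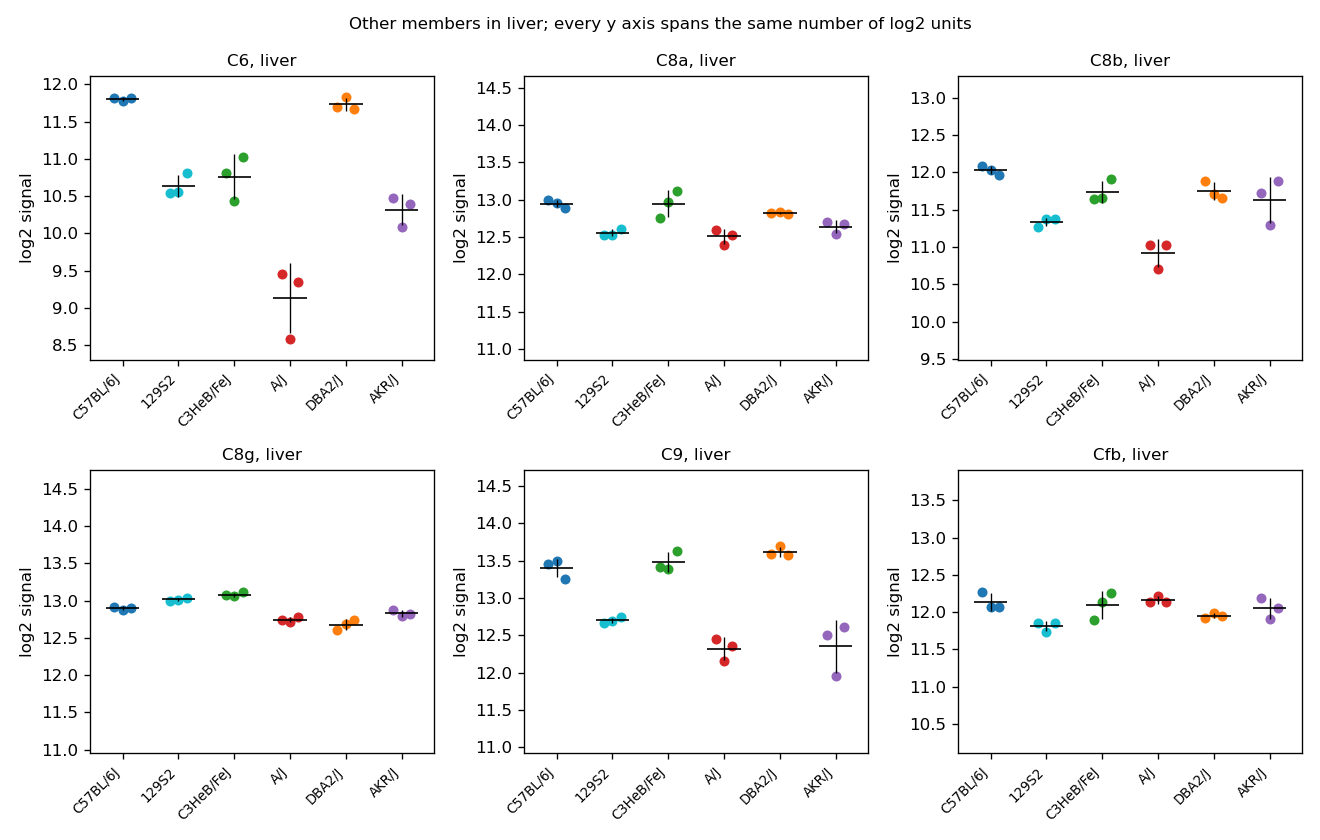
Log2 signal (y axis) of C6, C8a, C8b, C8g, C9 and Cfb in liver by strain (x axis), with points for 3 arrays, a line for the mean and a bar for the SD. C6 spreads by 2.67 between strain means and Cfb by 0.35.

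Other markers moved with strain in liver. Acute phase markers, of which 8 of 9 passed, averaged 11.44 in C57BL/6J, from 10.10 to 12.54 over its arrays, and 9.66 to 10.48 in the other strains. Macrophage markers, of which 10 of 10 passed, averaged 8.21 to 8.72 over the C57BL/6J arrays and 7.44 to 8.01 over the others. The part of either in the high C57BL/6J signals of Hc, C6, C8a and C8b was not tested. Hepatocyte markers averaged 13.98 to 14.09 by strain, with A/J at 14.06, and 3 of 11 passed. Their part in the low A/J signals of Hc, C6, C8a, C8b and C9 was not tested.

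Across the 18 liver arrays, C6 was correlated with C8b (r = 0.87) and C9 (r = 0.83), C8a with C9 (r = 0.86) and C8b (r = 0.85), and Hc with C8g (r = 0.75). These points share strains and arrays and are given as a description. Among 8868 genes with a liver mean of at least 6, those most like Hc by Pearson correlation over the 18 arrays were Tbcb (0.917), Capns1 (0.908) and Pdzd8 (0.875). Those most like C6 were Elovl3 (0.953), Cdh1 (0.924) and Pdcl3 (0.920).

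C8g in testis divided the strains as Hc did in liver. The arrays read 9.25, 9.13 and 9.29 in C57BL/6J, 9.25, 9.15 and 9.25 in 129S2, and 9.30, 9.22 and 9.31 in C3HeB/FeJ. They read 8.17, 8.29 and 8.24 in A/J, 8.14, 8.23 and 8.24 in DBA2/J, and 8.12, 8.27 and 8.32 in AKR/J. The 9 arrays of the latter strains lay below the other 9, an ordering of 0.242% of all genes, by -1.02 ± 0.0365 (SE; limma adjusted p = 1.53e-12), or 2.02-fold. Within each set of 3 strains no neighbours differed. In testis 3 of 7 genes passed the F test (40.5% of all genes did), namely C8g, C8b and Cfb.

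The same comparison gave a difference for C8g of -0.25 in liver (limma adjusted p = 8.55e-05) and of -0.21 in kidney (limma adjusted p = 0.0224). The kidney call was lost without 1 DBA2/J array (replicate 2; 0.0504). In kidney A/J alone was low, with 8.61, 8.21 and 8.42 below the other 15 arrays (-0.58 ± 0.0821, SE, limma adjusted p = 7.05e-05). The share of all genes with that ordering in kidney was not counted. C8g and Hc both lie on chromosome 2, and the gene model of C8g overlaps that of Fbxw5, its neighbour. Fbxw5, looked at after the C8g values were seen, was also lower in the 3 strains in testis, by -0.55 ± 0.0519 (SE; limma adjusted p = 4.65e-07), with no overlap of arrays. It passed in kidney (-0.30; limma adjusted p = 1.02e-04) and not in liver (-0.09; limma adjusted p = 0.426). Fbxw5 also passed in brain (-0.19; limma adjusted p = 0.00676) and lung (-0.14; limma adjusted p = 0.0352), where C8g did not (-0.08 and 0.08; limma adjusted p = 0.444 and 0.318). Lcn12, the neighbour on the other side, did not differ in testis (0.08; limma adjusted p = 0.355).

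**Figure D3:**
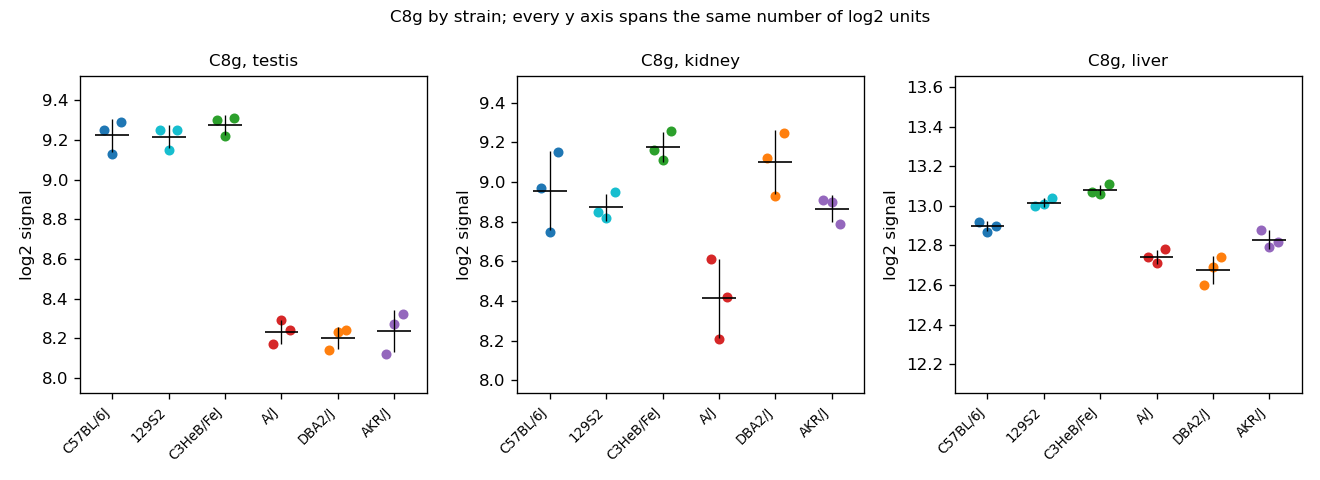
C8g log2 signal (y axis) in testis, kidney and liver by strain (x axis), with points for 3 arrays, a line for the mean and a bar for the SD. In testis the strains form 2 levels about 1.02 apart, whereas in kidney A/J alone is low.

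In testis, C8b averaged 8.34 ± 0.113 on the C57BL/6J arrays and 8.01 ± 0.0148 on the A/J arrays (SD, n = 3). It passed the limma F test (adjusted p = 6.73e-04), a call lost with the arrays of all tissues in 1 fit (0.079). Cfb in testis, below the array median, read 5.80 ± 0.0515 in AKR/J and 5.43 ± 0.081 in 129S2 (SD, n = 3; limma F test, adjusted p = 0.0245). That call was lost without 129S2 replicate 2 (0.0983), 129S2 replicate 4 (0.0641) or AKR/J replicate 3 (0.0566).

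In kidney 4 of 7 genes passed (46.1% of all genes did), a share near that of all genes. For C8a, A/J had the highest strain mean there, whereas in liver it had the lowest. A/J read 9.33, 9.36 and 9.45, C3HeB/FeJ read 9.34, 9.18 and 9.31, and C57BL/6J read 8.17, 8.22 and 8.41. A/J exceeded the other 5 strains by 0.64 ± 0.0838 (SE; limma adjusted p = 3.29e-05), though its arrays overlapped with those of C3HeB/FeJ. The kidney and liver effects were each tested within their tissue and their difference was not tested. Cfb read 11.45, 11.60 and 11.49 in C3HeB/FeJ and 11.06, 10.93 and 11.18 in C57BL/6J (limma F test, adjusted p = 3.32e-04). Hepatocyte markers in kidney, of which 6 of 11 passed, averaged from 6.20 in A/J to 6.81 in C57BL/6J. Fibroblast markers, of which 8 of 8 passed, averaged 9.07 to 9.15 over the C57BL/6J arrays and 8.12 to 8.95 over the others. The part of either in the C8a and Cfb differences was not tested. C6 in kidney was below the array median and spread by 0.40 (limma F test, adjusted p = 0.001).

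**Figure D4:**
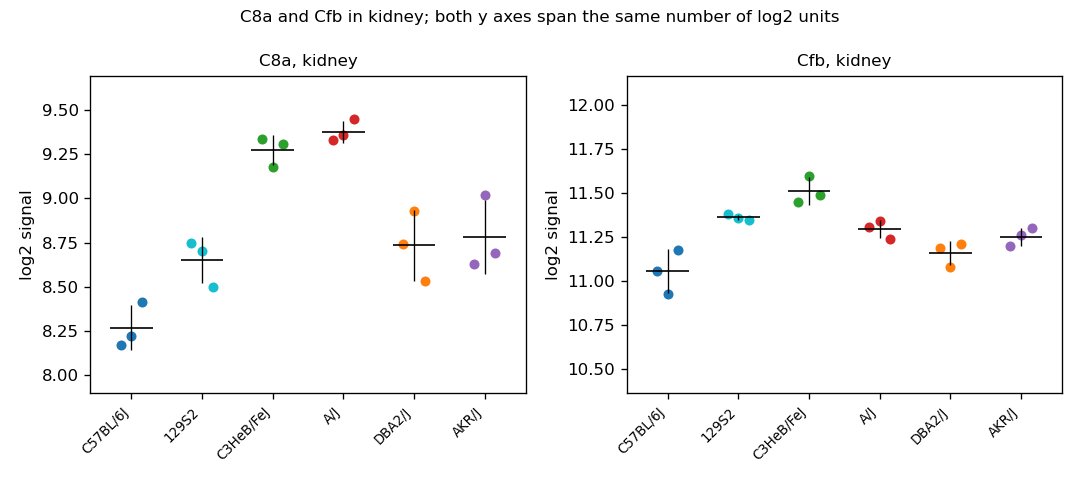
C8a and Cfb log2 signal (y axis) in kidney by strain (x axis), with points for 3 arrays, a line for the mean and a bar for the SD. C57BL/6J is lowest for both genes, at 8.27 for C8a and 11.06 for Cfb.

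No gene of the 7 passed the F test in heart (21% of all genes did) or brain (23.1%). In limma, 1 gene in heart and 0 in brain had an unadjusted p under 0.05. In lung, C8a, C8b, C8g and C9 averaged 3.84, 5.26, 5.57 and 4.88, below the array median, and did not pass.

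Taken 3 against 3, the mean of the deficient strains was lower and passed (limma adjusted p under 0.05) for 5 of 7 genes in liver. This held for 4.07% of all genes. It was lower and passed for 1 in lung (4.14%), 2 in kidney (9.22%) and 2 in testis (8.03%). In heart (2.84%) and brain (2.83%) 0 of 7 passed this limma contrast, and 0 had an unadjusted p under 0.05. C8a in kidney was higher in these strains (0.23; limma adjusted p = 0.0133). The 5 in liver were Hc, C6, C9 (-0.43; limma adjusted p = 9.44e-04), C8g and C8b (-0.27; limma adjusted p = 0.0305). Not every deficient strain was low for each: DBA2/J had the highest liver mean for C9 (13.62). For C6 (11.73) and C8b (11.75) DBA2/J came next after C57BL/6J. For C8b, AKR/J (11.63) was also above 129S2 (11.34). The C8b call was lost on leaving out any of 8 single arrays, with adjusted p from 0.053 to 0.0674. C8a in liver was at -0.16 (limma adjusted p = 0.0556), and passed under 6 alternative settings.

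**Figure D5:**
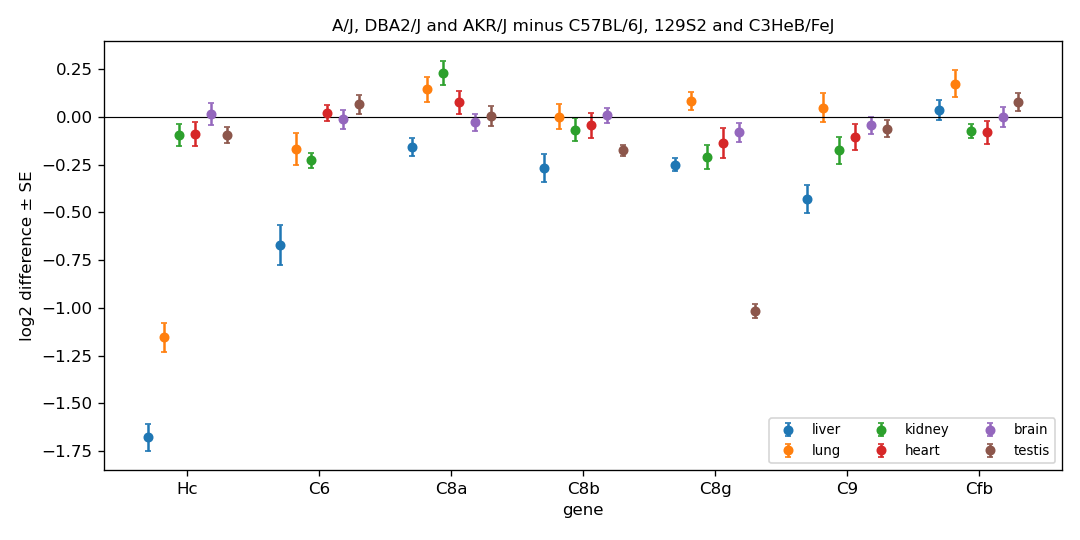
Log2 difference (y axis), A/J, DBA2/J and AKR/J minus C57BL/6J, 129S2 and C3HeB/FeJ, for each gene (x axis) and tissue (colour), with bars for the SE. Hc in liver (-1.68) and lung (-1.15) and C8g in testis (-1.02) stand below the other values.

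Of 34 other complement genes measured, 17 passed the F test in liver, 17 in lung, 20 in kidney, 9 in heart, 8 in brain and 15 in testis, against 31.6%, 32.5%, 46.1%, 21%, 23.1% and 40.5% of all genes. The liver genes with the widest spread were Cd59a, an inhibitor of the membrane attack complex (9.93 in A/J, 8.20 in 129S2; limma F test, adjusted p = 7.17e-11), and C1qa, C1qb and C1qc, the chains of C1q, and Fcna, a ficolin. The latter 4 were highest in C57BL/6J, at distances of 1.28, 1.27, 1.24 and 1.12 from their lowest strain. Macrophage markers were also highest in C57BL/6J; their part was not tested. In lung the widest were Vsig4, Cd59a, Clu, Itgax and Itgb2, with spreads of 1.32, 1.28, 0.93, 0.81 and 0.79. Of these, Clu, a fluid-phase inhibitor of the complex, was lowest in A/J at 11.15 and highest in C57BL/6J at 12.08 (limma F test, adjusted p = 0.00127).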

How the data were processed

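Total RNA was hybridised to Affymetrix arrays, 3 for each of 36 groups; the label protocol speaks of pools, while titles name animals. The deposited values are log2 signals made by the authors with RMA, per the submitters' processing notes (version not given in the sources used here). Strain, tissue and animal number came from titles; for 4 arrays of 129S2 title and source name give different numbers. Of 45101 probe sets, 34945 had 1 gene, 932 several and 9160 none (34741 matched RefSeq, GRCm38.p6, by gene ID); the brightest per gene was kept, giving 18193 genes. In each tissue limma 3.58.1 (R 4.3.3) fitted 1 mean per strain over 18 arrays, with a moderated F test and contrasts, Benjamini-Hochberg adjusted over all genes at 0.05. A fit over the 36 liver and lung arrays, with the animal as a random block (correlation 0.0592), tested strain by tissue. The scripts were tested on simulated data. Named genes were all members, up to 5 passing other complement genes with the widest spread in liver and in lung, and the 3 most correlated with Hc and C6; marker lists were described whole. Members and lists were chosen with earlier results of these data known. The number of arrays limits precision. Same-numbered animals of different strains are different mice, so numbers did not pair samples in the main fits. Deviations of same-numbered arrays correlated from -0.642 to 0.644. Their median r ran from -0.0153 in brain to 0.123 in testis, where other pairs had medians of 0.00678 and -0.0126. Same-numbered pairs had the higher median in every tissue but brain. Whether arrays of 1 number shared a batch was not tested.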

Additional observations from a re-analysis of the deposited data

Results flagged for a closer look

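The strain differences of all 7 genes differed between liver and lung by the interaction F test of limma (33.8% of all genes passed), with adjusted p of 0.00412 for Hc, 7.14e-06 for C6, 6.84e-04 for C8a, 1.08e-04 for C8b, 4.77e-04 for C8g, 1.2e-07 for C9 and 0.00977 for Cfb. For C8a, C8b, C8g and C9 the lung signal was below the array median, so the test sets a spread in liver against low signals in lung. The sources do not say whether RMA was run on each tissue apart, and the C57BL/6J liver and lung arrays came from different animals. A check with the mean of probe sets could not change the values of these genes, each having 1 probe set. All 7 calls were kept there, with no random block and with an intensity trend. They were also kept without C3HeB/FeJ lung replicate 3, a choice made after seeing the data, with adjusted p of 0.00988 for Hc, 4.96e-06 for C6, 0.00131 for C8a, 1.34e-04 for C8b, 0.00152 for C8g, 9.35e-08 for C9 and 0.00614 for Cfb.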

How the results depend on the processing

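Of 3799 values recomputed under the alternatives, 3650 were labelled the same, 127 lost and 20 gained a call, 2 counts moved, and 0 reversed. The same label means the same side of the threshold or, for counts of passing genes, little or no change. Direction was checked only for values that passed in the main fit, so other values may have changed sign. The count passing the F test in testis was 5 in place of 3 after quantile normalization again, Hc and C6 joining. Leaving out single arrays gave counts of 6 to 7 in liver, 3 in lung, 4 to 5 in kidney, 0 to 1 in heart (C9, without A/J replicate 1, adjusted p 0.0444), 0 in brain and 2 to 4 in testis. The 3-strain difference of Hc then ranged from -1.71 to -1.63 in liver, -1.20 to -1.11 in lung and -0.124 to -0.0769 in testis, where it passed without C3HeB/FeJ replicate 3 (limma adjusted p 0.0233). Calls against the other 5 strains were lost for A/J C8g in liver without any 1 A/J array (adjusted p up to 0.125) and for A/J C8a in liver without A/J replicate 2 (0.0815). With all probe sets tested the liver count was 6, Cfb being lost (0.0528). With the replicate block, the count was 6 in liver, Cfb again being lost (0.0645), and 4 in testis, Hc being gained (0.0301); Hc in liver was at -1.67. Numbers shared by no other strain added nothing to that block. The second brightest probe set was not run, as each gene had 1. Other causes of the changes were not tested.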

Other observations

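Between C8g and Hc on chromosome 2 lie 179 other tested genes. Fbxw5, whose gene model overlaps that of C8g, is not counted among them. In testis 29 of them passed the 3-strain comparison (16.2%, against 16.8% of all genes), 14 of them lower in A/J, DBA2/J and AKR/J. For 0 of the 179 were all 9 testis arrays of those strains below the other 9, and for 2 they were above. The liver arrays were all below for 1 of the 179 and all above for 0. Of the 44 genes with all 9 arrays below in testis among all tested, 10 were on chromosome 2 (22.7%). The same counts were 5 of 23 in kidney, 3 of 15 in lung, 2 of 14 in liver, 2 of 17 in heart and 1 of 1 in brain. Chromosome 2 held 1407 of the 18193 genes tested (7.73%). The 10 in testis include C8g, whose values prompted the look, and Fbxw5, which overlaps it. The interval between C8g and Hc was chosen after the C8g values were seen, and no test was made.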
